A study of Mus musculus with 8 samples.

Results

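The data described here are the 4 control arrays of a study of the transcription factor GATA4 in adult mouse liver, chosen as the samples labelled with GFP treatment, out of 8 arrays in all. Each array carries RNA from hepatocytes isolated 2 weeks after an intravenous injection of AAV8-Tbg-GFP, an adeno-associated virus that expresses green fluorescent protein from the thyroxine-binding globulin promoter, which is active in hepatocytes. The mice were homozygous for a floxed Gata4 allele (Gata4 fl/fl, CD1 x 129S1/SvImJ background) and were 2 to 3 months old. Without Cre the floxed allele stays intact, so these cells served as the undeleted control of the study and carry both the virus and the loxP sites. The labels give neither sex nor litter and do not say that each array is a separate mouse, so the spread reported here is the spread between these 4 samples and may be partly technical. No comparison with the Cre-injected group was made.

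RNA was hybridised to Illumina MouseWG-6 v2 BeadChips, on which each transcript is read by one or more short probes. Signals were background corrected, quantile normalized and put on a log2 scale, where a difference of 1 is a factor of 2. Of the 45281 probes, 13794 (30.5%) had a detection p-value at or under 0.05 in all 4 arrays, with 15406 to 16387 probes detected per array. A gene symbol was available for 11162 of these probes, and with 1 probe per gene (the one with the highest mean) this gave 7686 detected genes. They are 79.7% of the 9640 genes with a named probe, a share that depends on the authors' filtered value table, since only probes of that table could be named. Of the probes detected in all 4 arrays 1020 were not in it. Of the other 1954 named genes 420 were detected in none of the control arrays. Just inside the threshold lay 2410022M11Rik and 2900009J06Rik, both with a highest detection p of 0.0491, and just outside it lay Angpt2 and Asah2, both at 0.0502 in their least favourable array.

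A limit of the ranking is that 97 of the 100 brightest probes are not in the authors' value table and have no gene name here. Their mean signals reached 16.09, at the top of the scanner range, where the highest signals per array were 70406 to 71285. The first named gene stood at position 57 among the probes. The gap narrows below the ceiling, since 296 of the 500 brightest and 695 of the 1000 brightest probes had exactly one symbol. Genes such as Ttr and Apoa1, which are classic abundant hepatocyte transcripts, are not part of the ranking. Whether they are among the unnamed bright probes was not examined. A probe's signal also depends on its sequence, so the order below is an order of probe signals and not of mRNA amounts.

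The arrays did not form one even group. Pairwise Pearson correlations over the detected probes ran from 0.971 (replicates 1 and 3) to 0.985 (replicates 2 and 3), and 202 genes differed by 1 or more between replicates 2 and 3 against 337 to 477 in the other pairs. Xist, the RNA that coats the inactive X chromosome in female cells, had signals of 13.33, 5.22, 5.16 and 13.78 in replicates 1 to 4 and was detected only in replicates 1 and 4. The Y-linked gene Kdm5d showed the opposite order, with 5.47, 7.75, 7.80 and 5.42, and was detected only in replicates 2 and 3, as was Uty with 6.08, 7.09, 7.51 and 5.93. Replicates 1 and 4 thus stood apart from replicates 2 and 3 in these 3 genes without any overlap. Probes detected only in replicates 1 and 4 numbered 434, those detected only in replicates 2 and 3 numbered 113, and the other pairs gave 174 to 201. Replicates 1 and 4 also had the most detected probes in all, 16364 and 16387 against 15406 and 15499, so these counts partly follow the detection rate. Values are therefore given for each replicate, and the main measures are also given without replicates 1 and 4.

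Hepatocytes are the parenchymal cells of the liver. They secrete most plasma proteins, run the urea cycle and gluconeogenesis, make bile acids and lipoproteins, and detoxify drugs through cytochrome P450 enzymes and conjugating transferases. Their identity is held by a network of transcription factors in which HNF4A is central, and their metabolism differs between the periportal and pericentral ends of the lobule and follows the circadian clock, feeding and pituitary growth hormone.

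All 5 hepatocyte markers were detected in every array with little spread. Hnf4a read 14.22, 13.90, 14.03 and 13.97 (mean 14.03 ± 0.14, SD, n = 4) and ranked 436 of 7686. F10, which encodes coagulation factor X, read 15.29, 15.20, 15.13 and 15.38 and ranked 120. Mbl2, a mannose-binding lectin of the complement system, read 15.43, 15.07, 15.32 and 15.36 and ranked 112. In none of these 3 genes did one array stand apart by Dixon's ratio, the gap of an end value to its neighbour over the whole range. Inmt, an indolethylamine methyltransferase, gave 15.93, 16.02, 16.07 and 15.68, and Scd1, the stearoyl-CoA desaturase of fatty acid synthesis, gave 16.06, 15.87, 16.07 and 15.92. Both lay within 10% of the array maximum in 3 of 4 arrays.

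**Figure D1:**
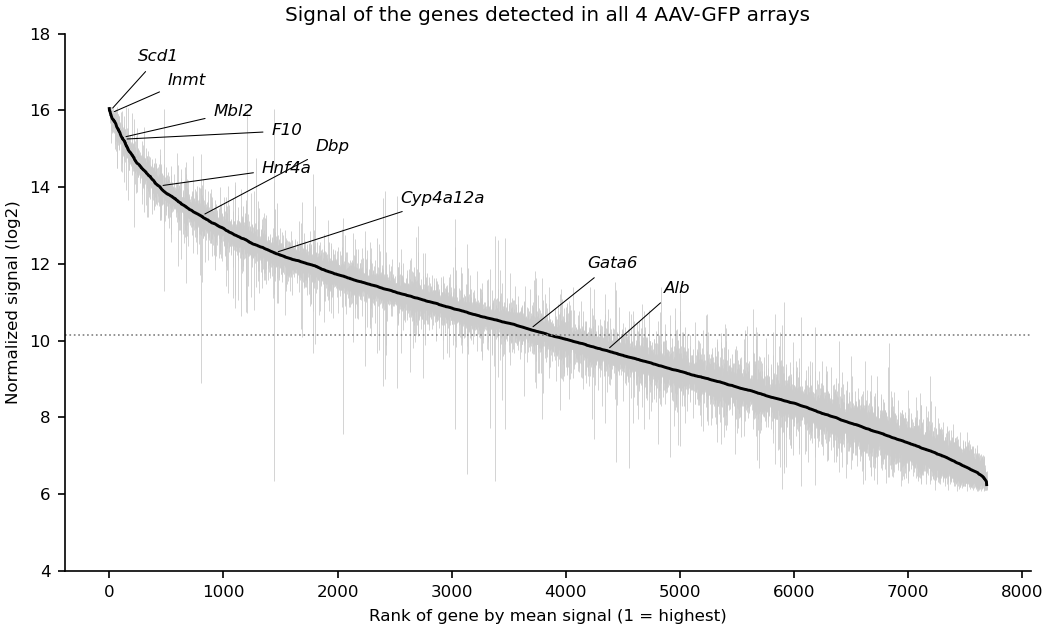
Normalized log2 signal (vertical axis) of the 7686 genes detected in all 4 AAV-GFP arrays against their rank (horizontal axis); the black line is the mean, each grey line spans the lowest to the highest array, and the dotted line marks the median gene at 10.16. The 5 hepatocyte markers lie at the bright end, whereas the named Alb probe lies below the median and Cyp4a12a and Dbp have long grey lines.

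Over the 7686 genes the mean signal ran from 6.25 to 16.05, with a median of 10.16 and quartiles of 8.56 and 11.80. The gene with the highest named signal was Mt1, a metallothionein that binds zinc and copper, at 16.08, 16.06, 16.02 and 16.04. Ces1d, a carboxylesterase of the endoplasmic reticulum, followed at a mean of 16.01. Chchd10, a mitochondrial intermembrane protein, and Cyp2c70, a P450 enzyme that makes muricholic acids in mice, both averaged 15.99. The 20 highest genes spanned only 15.84 to 16.05, a range smaller than the SD of several of them, so neighbours in this order do not differ beyond their spread. They comprised secreted proteins (Orm1, Itih3, Plg, Kng1 and Hamp, the iron hormone hepcidin), P450 enzymes (Cyp2c70, Cyp3a11, Cyp2c37 and Cyp2a5), lipid enzymes (Scd1, Fads1 and Acsl5), and Amy2a5, Inmt, Prdx1, Herpud1 and Ppia beside the first 3. Of the detected genes 4 were within 10% of the array maximum in every array and 59 in at least one array.

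The Mt1 promoter is shown because Mt1 leads the ranking and is known to be induced through metal response elements. The window holds 250 bases before and 50 after the annotated start (RefSeq, GRCm38.p6, chr8:94178839-94179138, plus strand). Capitals mark matches to the core letters TGCACNC or TGCGCNC, searched on both strands.
Mt1: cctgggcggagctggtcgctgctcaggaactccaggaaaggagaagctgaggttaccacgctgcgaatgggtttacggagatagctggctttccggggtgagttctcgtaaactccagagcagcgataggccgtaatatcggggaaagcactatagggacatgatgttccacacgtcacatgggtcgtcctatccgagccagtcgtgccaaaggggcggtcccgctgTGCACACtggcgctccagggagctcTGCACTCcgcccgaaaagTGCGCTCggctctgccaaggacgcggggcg
The 3 matches began at -23, 2 and 20 bases from the annotated start. Among 27025 genes with such a window, 25.6% held at least one match and 2% held 3 or more, so a match of these short letters is common and is given as a description of the window.

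Genes encoding secreted plasma proteins were among the brightest groups. Counts of detected list members, here and below, stand beside a share of 79.7% over all named genes. Of 18 named coagulation and fibrinolysis genes 17 were detected in all arrays, with a median signal of 14.45 and a median SD of 0.12, and 13 of them were among the brightest 10% of all detected genes. Plg (plasminogen, 15.91), Kng1 (kininogen, 15.86), Serpinf2 (antiplasmin, 15.72) and Proc (protein C, 15.57) led this list. The exception was the fibrinogen chain gene Fgb, whose named probe read 6.92, 6.06, 6.55 and 6.32 and was detected in 3 arrays, although Fgg of the same protein complex averaged 15.08. Carrier proteins gave 21 of 22 detected with a median of 14.44, and complement and lectin genes gave 16 of 16 with a median of 13.94. Within these groups the arrays were close to one another for Ahsg (15.52 ± 0.06), F2 (prothrombin, 14.80 ± 0.05) and C4bp (14.41 ± 0.05). Itih3 had a similar SD (15.94 ± 0.06) but was within 10% of the array maximum in 3 of 4 arrays. The named Alb probe read 9.75, 9.64, 9.84 and 9.74, below the median gene, with an SD of only 0.08. Albumin is known as the most abundant hepatocyte product, and the level of this probe is not read here as its abundance. Apolipoprotein and lipid transfer genes were detected in 10 of 10 cases with a median of 13.86, led by Apof (15.20), Apom (14.95) and Apob (14.89).

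Cytochrome P450 genes formed the list with the highest median, 15.26 over 20 detected of 24 named, and 15 of the 20 were in the brightest 10%. Cyp2a12 (15.74 ± 0.08), Cyp2d10 (15.74 ± 0.17) and Cyp2c50 (15.70 ± 0.39) were typical bright members. Cyp1a2, a pericentral enzyme that oxidises aromatic amines, read 13.53, 15.03, 14.47 and 14.52, lowest in replicate 1. The same list also held the gene with the largest SD of all, Cyp4a12a, described below. Conjugation enzymes were detected in 29 of 33 cases with a median of 13.72. Sult1a1, a phenol sulfotransferase (15.51), Gstm1, a glutathione transferase (15.20), and Ephx1, the microsomal epoxide hydrolase (15.16), were among their brightest members after Inmt. Alcohol, aldehyde and retinol dehydrogenases were all detected (18 of 18, median 13.40), with Aldh4a1 (15.80), Adh1 (15.50) and Rdh7 (15.32) at the top. Members of the P450, Gst, Mup and globin families are similar in sequence, so probes named for one member may also bind others.

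Most named genes of intermediary metabolism were detected, where 79.7% is the share over all named genes, and list members without a named probe are not counted. Urea cycle and amino acid genes were detected in 20 of 22 cases (median 13.83), with Hgd and Hpd of tyrosine breakdown at 15.73 and 15.67 and Haao of the kynurenine pathway at 15.42. Glul, the pericentral glutamine synthetase, and Tat, the tyrosine aminotransferase, were each detected in only 1 array by their named probes (means of 5.62 and 5.80). Glucose metabolism gave 12 of 13 detected, from Pygl (glycogen phosphorylase, 15.63) and Fbp1 (fructose bisphosphatase, 15.20) down to Pklr (9.29). The gluconeogenic genes G6pc and Pck1 differed between arrays: G6pc read 14.53, 12.76, 14.03 and 12.71 and Pck1 10.22, 10.76, 11.57 and 11.69. Replicate 1 was thus the highest for one of these genes and the lowest for the other. Fatty acid oxidation genes were detected in 14 of 14 cases (median 13.22) and fatty acid synthesis and lipid droplet genes in 14 of 17 (median 13.15). The named Fasn probe was detected in 2 arrays only, while Acly, which makes cytosolic acetyl-CoA, averaged 14.77 and Elovl5 averaged 15.81. Bile acid genes were detected in 16 of 17 cases with a median of 14.24. Cyp7a1, the rate-limiting enzyme of bile acid synthesis, read 13.51, 14.56, 14.40 and 14.14, and Cyp8b1, which controls cholic acid formation, read 14.32, 15.92, 14.46 and 14.68. Replicate 2 was the highest of the 4 for both.

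Genes that every cell uses were bright and even. The 28 named cytosolic ribosomal protein genes were all detected (median 14.34, median SD 0.14), and Rpl37, Rpl38, Rps2 and Rpl23 exceeded 15.5. Of these only Rpl23 spanned more than 1, with 15.89, 14.50, 15.76 and 16.09. Oxidative phosphorylation genes were detected in 31 of 32 cases (median 13.92, median SD 0.13), and none of the 31 spanned 1 or more. Small shifts ran through both groups: in replicate 1, 27 of 28 ribosomal and 28 of 31 oxidative phosphorylation genes were above their own mean, and in replicate 4 none of the 31 was. Over all 7686 detected genes 3911, 4263, 4050 and 3389 were above their own mean in replicates 1 to 4, the background for this and later counts of that kind. The median deviations behind these counts were 0.16 and 0.13 in replicate 1 and -0.16 for oxidative phosphorylation in replicate 4. Genes of folding and secretion in the endoplasmic reticulum had the smallest median deviations of the lists, with 25 of 26 detected and values of -0.02 to 0.00 in all arrays. Gapdh read 14.69, 14.81, 14.62 and 14.49 and Actb read 14.49, 14.28, 14.49 and 14.34.

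**Figure D2:**
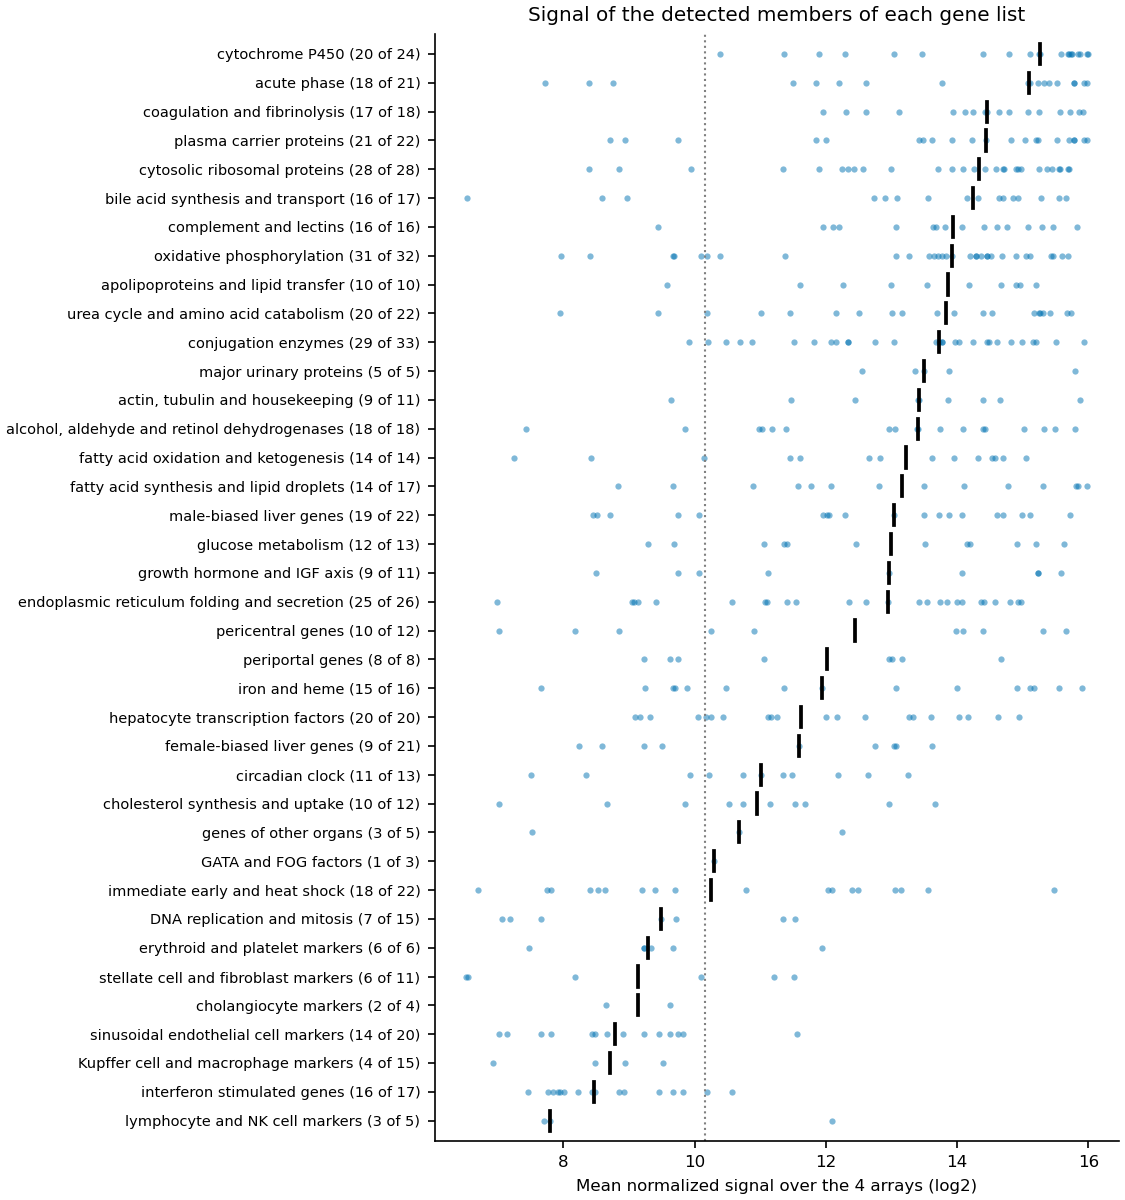
Mean normalized log2 signal (horizontal axis) of each detected member (points) of the gene lists, with the list median as a black bar and the median of all 7686 detected genes (10.16) as a dotted line; brackets give members detected in all 4 arrays of those with a named probe. P450, acute phase and coagulation lists have medians above 14, while the lists for other cell types have medians below 10.16.

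The hepatocyte transcription factors were detected without exception, 20 of 20 named genes with a median of 11.63. Cebpb (14.94), Nr1h4, the bile acid receptor FXR (14.62), Foxa3 (14.17) and Hnf4a (14.03) were the brightest. Foxa2 averaged 9.18 and Ppara 9.09, both below the median gene. Ppara, a nuclear receptor for fatty acids, was lowest in replicate 1 (8.34, against 9.17 to 9.46 in the others). Hhex, a homeobox factor, had the largest SD of the list at 0.60 with values of 13.74, 13.86, 13.13 and 12.57. Among GATA and FOG factors only 3 genes had a named probe. Gata6 was detected in every array at 9.96, 10.25, 10.38 and 10.59 (mean 10.30 ± 0.26), close to the median gene. The named Gata4 probe read 5.31, 5.37, 5.02 and 5.10 and was detected in no array, with a highest detection p of 0.894. The gene is not deleted in these cells, and a probe that binds poorly and a low transcript level cannot be told apart from this value. By other methods, RT-qPCR and Western blotting, the study detected GATA4 mRNA and protein in purified hepatocytes. Zfpm2, which encodes FOG2, was detected in 1 array (mean 5.89).

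Zonation genes from both ends of the lobule were present. Of 12 named pericentral genes 10 were detected (83.3%, median 12.45), and of 8 periportal genes all 8 were (median 12.01). The share over all named genes was 79.7%, so the pericentral share was close to it. Oat, the ornithine aminotransferase of pericentral cells, read 14.39, 15.43, 15.99 and 15.43, and Gulo, the last enzyme of vitamin C synthesis in mice, read 13.14, 14.26, 14.04 and 14.51. Replicate 1 was the lowest in both. Among periportal genes Hal, the histidine ammonia lyase, read 13.36, 13.01, 12.89 and 12.77 and Cdh1, E-cadherin, read 10.29, 8.28, 9.11 and 9.25. Replicate 1 was the highest in both of these. Over the lists, however, 4 of 10 pericentral and 6 of 8 periportal genes were above their own mean in replicate 1, with median deviations of -0.17 and 0.19, and the periportal genes Pck1 and Asl were lowest in replicate 1.

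Markers of other liver cells were present at lower signals. Detected in all arrays were 70% of the named endothelial, 26.7% of the Kupffer cell and 54.5% of the stellate and fibroblast markers. The share over all named genes was 79.7%. Sinusoidal endothelial markers were detected in 14 of 20 cases with a median of 8.79, led by Clec4g (11.57), Stab2 (9.82) and Fcgr2b (9.75), whereas the general endothelial genes Pecam1, Cdh5 and Kdr were detected in 3, 1 and 1 arrays. Kupffer cell markers were detected in 4 of 15 cases (median 8.71): Vsig4 read 8.81, 8.51, 8.99 and 9.42 and Clec4f 8.39, 8.12, 8.40 and 9.05, while Marco was detected in no array. Stellate and fibroblast markers gave 6 of 11, with Dcn (11.52) and Reln (11.21) above the median gene and Acta2, Pdgfra and Col3a1 detected in none. Of the cholangiocyte markers Sox9 (9.62) and Anxa4 were detected in every array, and Krt19, Krt7 and Epcam were not analysed here for want of a named probe. Neither of the 2 named neutrophil markers, S100a8 and Csf3r, was detected in any array. For bulk samples such as these, fewer cells of a type and less RNA per cell cannot be told apart. Hepatocytes had been separated on a density gradient, and all 7 lists of other cells had a median below that of all detected genes or no detected member.

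Lymphocyte markers were thinly covered, with 5 named genes. Cd8b1, a T cell coreceptor chain, stood out among them at 11.93, 12.14, 12.18 and 12.15, far above Cd74 (7.79) and H2-Ab1 (7.70), 2 genes of antigen presentation. Of the other 2, also antigen presentation genes, H2-Eb1 was detected in 2 arrays (mean 6.36) and H2-Aa in none. The lymphocyte-defining markers Cd3e, Cd79a and Nkg7 had no named probe. The erythroid genes did not move as one group. Hba-a1 read 10.31, 8.74, 9.69 and 8.14, Hbb-bs read 10.54, 8.61, 9.60 and 8.19, and Hbb-bt read 10.75, 8.46, 9.80 and 8.36, so the 3 globin genes kept the same order with replicate 1 highest and replicate 4 lowest. Alas2, the erythroid form of the first heme synthesis enzyme, read 10.88, 13.52, 13.47 and 9.91, with replicates 2 and 3 highest. Alas1, its form outside red cells, read 14.51, 15.78, 15.99 and 15.91, and was low in replicate 1 only.

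Of 15 named genes of DNA replication and mitosis 7 were detected in all arrays, or 46.7%, against 79.7% of all named genes. Among those 7 were Tk1, thymidine kinase (10.64, 11.42, 11.65 and 12.40), Tyms, thymidylate synthase (9.72), and Mcm4 (9.49). Ccnd1, the cyclin that drives entry into the cell cycle, was the most variable of the list and read 12.01, 8.99, 10.48 and 13.89. Replicates 1 and 4 were the higher ones and did not overlap replicates 2 and 3. Among 5 named genes typical of other organs, 3 were detected in every array. The pancreatic elastase gene Cela1 read 12.57, 12.41, 11.59 and 12.43, the synaptic gene Syt1 read 10.41, 10.79, 10.20 and 11.31, and the kidney transporter gene Slc12a1 read 7.46, 7.87, 7.75 and 7.02. Krt14 was detected in 1 array and Tnp1 in none.

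The spread over the 4 arrays was small for most genes. The median SD was 0.22, with quartiles of 0.15 and 0.34, and it fell with signal from 0.31 at means of 6 to 8 to 0.17 at means of 14 and above. An SD of 1 or more was found for 139 genes (1.81%) and of 0.5 or more for 827 (10.8%). A total of 1084 genes (14.1%) spanned 1 or more between the lowest and the highest array, and 189 spanned 2 or more. Without replicates 1 and 4 the median SD was 0.13. This value rests on the remaining pair of arrays, the most alike of all pairs, and a median SD over a pair tends to be lower than one over 4 arrays. The largest SD among genes with a mean of at least 10 belonged to Cyp4a12a, followed by Dbp, Nat8, Ciart, Scara5, Usp2, Nt5e and Mup21.

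**Figure D3:**
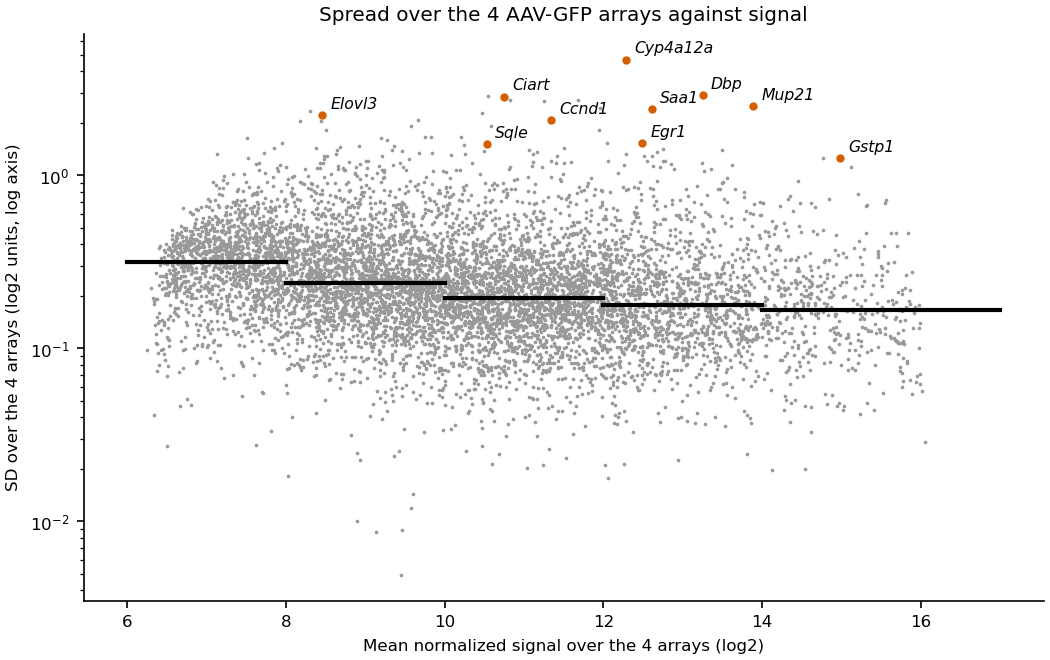
SD over the 4 AAV-GFP arrays (vertical log axis, log2 units) against mean normalized log2 signal (horizontal axis) for each detected gene (grey points); black bars give the median SD in bins of signal, from 0.31 at the dim end to 0.17 at the bright end. The genes named in orange include Cyp4a12a with an SD of 4.68 and Dbp with 2.91.

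Clock genes were low in replicate 1. Mammalian cells keep circadian time through a loop in which ARNTL and CLOCK activate the Per and Cry genes, whose products repress them, and clock output factors such as DBP follow the same activators. Dbp read 8.89, 14.72, 14.53 and 14.86, so that replicate 1 lay 5.64 below the next array and the other 3 had an SD of 0.17. Ciart, a repressor in the same loop, read 6.51, 11.53, 12.40 and 12.52, and Usp2, a clock-controlled deubiquitinase, read 7.58, 12.77, 13.19 and 13.21. In these 3 genes replicate 1 lay below the next array by at least 5.02. Per2 followed with 9.62, 11.34, 12.07 and 12.32, Tef with 10.67, 12.37, 12.81 and 12.88, and Per1 with 9.15, 10.13, 10.77 and 10.84. The activator genes ran the other way, with Arntl at 9.93, 7.09, 6.57 and 6.45 and Clock at 12.14, 11.21, 11.29 and 11.31, both highest in replicate 1. Npas2, a partner of ARNTL, was detected only in replicate 1 (6.44, against 5.13 to 5.16).

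Of the 11 detected clock genes 2 were above their own mean in replicate 1, and those were Arntl and Clock. The median deviation of the list was -0.89 in replicate 1, 0.09 in replicate 2, 0.33 in replicate 3 and 0.62 in replicate 4. Over all detected genes the median deviation was 0.01, 0.02, 0.01 and -0.03 in the same order. Without replicate 1 the SD of Dbp was 0.17 in place of 2.91, that of Usp2 0.25 in place of 2.75, that of Ciart 0.54 in place of 2.85 and that of Arntl 0.33 in place of 1.64. These genes were named for a large SD, so such a fall is partly set by the choice of genes. The median SD of the list was 0.33 without replicate 1, 0.78 with all arrays and 0.82 to 0.95 without any other single array. Genes outside the fixed list had the same shape: Nrg4, a neuregulin, read 7.73, 11.11, 11.87 and 11.61, and Lpin1, a phosphatidate phosphatase, read 10.64, 13.27, 13.26 and 13.52. Map2k6, a kinase upstream of p38, read 7.27, 9.79, 9.79 and 10.02. Nrg4 was named for a large SD, and Lpin1 and Map2k6 for one array apart, so their shape is partly set by that choice. Over all detected genes replicate 1 was apart by Dixon's ratio above the others in 97 and below them in 116. Time of harvest is not given in the labels, so whether it differed between arrays was not tested.

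The promoters of 3 clock genes are shown, picked because these genes moved together and also hold the letters CACGTG. These letters are the E-box to which ARNTL and CLOCK are known to bind. Cry1 and Bhlhe41 of the clock list also held an E-box and are not shown. Whether the E-box goes with the order of arrays was not tested. Each window runs from 250 bases before to 50 after the annotated start (RefSeq, GRCm38.p6) and is written 5′ to 3′ on the gene's strand. The E-box reads the same on both strands, and its matches are in capitals. Ciart lies on the minus strand at chr3:95882179-95882478, Per1 on the plus strand at chr11:69098699-69098998 and Tef on the plus strand at chr15:81802423-81802722.
Ciart: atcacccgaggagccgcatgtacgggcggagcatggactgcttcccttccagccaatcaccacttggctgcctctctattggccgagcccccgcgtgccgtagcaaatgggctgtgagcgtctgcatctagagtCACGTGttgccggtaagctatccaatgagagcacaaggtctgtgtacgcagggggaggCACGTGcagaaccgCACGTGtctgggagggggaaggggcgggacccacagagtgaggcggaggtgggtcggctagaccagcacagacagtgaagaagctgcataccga
Per1: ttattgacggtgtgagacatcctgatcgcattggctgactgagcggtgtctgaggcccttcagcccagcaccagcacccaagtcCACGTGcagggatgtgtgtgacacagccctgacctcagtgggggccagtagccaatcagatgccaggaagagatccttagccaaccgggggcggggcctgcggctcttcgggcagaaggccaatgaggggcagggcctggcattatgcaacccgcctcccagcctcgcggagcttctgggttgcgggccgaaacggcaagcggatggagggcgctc
Tef: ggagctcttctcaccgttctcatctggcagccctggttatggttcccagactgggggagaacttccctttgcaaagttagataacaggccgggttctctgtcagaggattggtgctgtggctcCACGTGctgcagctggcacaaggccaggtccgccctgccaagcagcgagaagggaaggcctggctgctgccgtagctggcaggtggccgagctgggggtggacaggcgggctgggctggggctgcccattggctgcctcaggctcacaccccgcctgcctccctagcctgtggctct
Ciart held 3 E-boxes, at -116, -58 and -44 bases, Per1 held 1 at -166 and Tef held 1 at -127. Of 27025 genes with a window 7.24% held at least one E-box and 0.0888% (24 genes) held 3 or more. Among the 15 clock list genes with a window, 5 held an E-box in the first listed window, the one on which the share over all genes rests. A few of these genes have further windows: the second of Tef also held an E-box and the second of Per1 held none. The window of Dbp, the gene with the largest deviation, held none either. The D-box letters TTATGNAA, searched on both strands, were found in 2 of the 15, namely in Per3 with 2 matches and in Per1 with 1, against 3.52% of all genes. In the windows examined no match of the E-box, the D-box or the metal response letters overlapped a match of another. The absence of these letters from a window says nothing about sites elsewhere in a gene.

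Several genes known to differ between male and female mouse liver split the arrays as Xist did. In rodents the pulsatile growth hormone of males and the steadier pattern of females set the levels of many P450, sulfotransferase and major urinary protein genes. Cyp4a12a, a male-predominant fatty acid hydroxylase in mice, read 10.73, 16.03, 16.03 and 6.35. Mup21 read 12.15, 16.05, 16.03 and 11.30, C6 of the terminal complement pathway read 10.02, 13.81, 14.34 and 9.67, and Elovl3, a male-predominant elongase, read 6.94, 10.30, 10.42 and 6.14. In each, replicates 2 and 3 lay above replicates 1 and 4 without overlap, and replicate 4 was the lowest. How many of all detected genes separate these pairs without overlap was not counted, for these or for other genes described here. Gstp1 (14.15, 16.05, 16.08 and 13.67), Cyp2d9 (14.40, 16.07, 16.08 and 13.93) and Hsd3b5 (11.64, 13.61, 12.86 and 10.08) had the same order of pairs.

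Of the 19 detected male-biased genes 16 were above their own mean in replicate 2, 16 in replicate 3, 4 in replicate 1 and 4 in replicate 4. The median deviations were 0.54, 0.39, -0.41 and -0.53. Of 21 named female-biased genes 9 were detected in all arrays (42.9%, against 79.7% of all named genes) and the other 12 in some arrays only. The genes of this list that were absent from some arrays and bright in others, named here after their values were seen, include A1bg (14.36, 5.24, 6.55 and 16.07), Slc22a26 (11.63, 5.27, 5.30 and 12.37), Cux2 (10.10, 5.44, 5.51 and 11.43) and Hao2 (8.41, 4.88, 5.00 and 9.34). All 4 were high in replicates 1 and 4 and near background in replicates 2 and 3, except that A1bg passed detection in replicate 3. The female-biased genes detected in every array were less uniform, with 9 of 9 above their mean in replicate 4 but 4 of 9 in replicate 1. Nt5e, a cell surface nucleotidase outside these lists, read 13.37, 9.10, 8.76 and 13.77. Without replicates 1 and 4 the median SD of the male-biased list was 0.17 in place of 0.92. That of the 9 female-biased genes detected in every array was 1.24 in place of 1.07, a rise. Over all detected genes the median SD also fell without these arrays. An SD over the remaining pair of arrays tends to be lower than one over 4, so part of such a fall is set by the smaller number. The pair was chosen after the split was seen, and no other pair was left out for comparison. The SD of Cyp4a12a, a gene named for its large SD, was 0.01 in place of 4.68. Both remaining values of Cyp4a12a are near the ceiling. The growth hormone targets Socs2 (11.21, 10.62, 8.20 and 10.27) and Cish (11.38, 12.70, 10.22 and 10.16) did not divide the arrays in this way. Bcl6 (8.66, 9.30, 10.49 and 10.51) did not either. Sex is not given in the labels and was not assigned here.

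**Figure D4:**
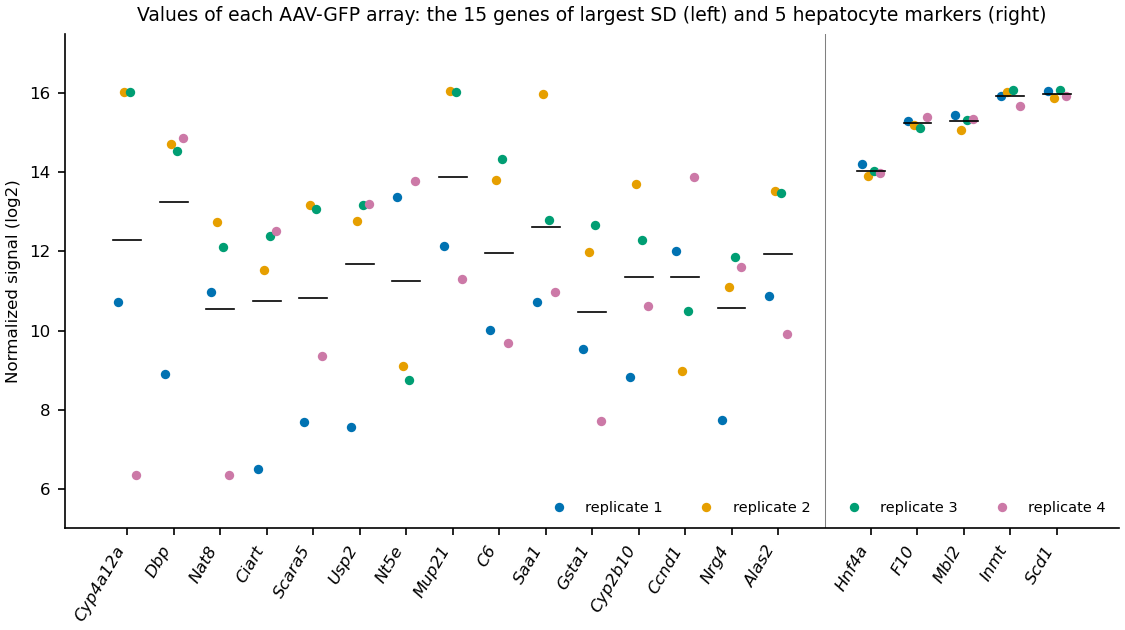
Normalized log2 signal (vertical axis) in each AAV-GFP array (coloured points, black bar for the mean) of the 15 genes with the largest SD among those with a mean of at least 10, and of 5 hepatocyte markers. The variable genes differ in which arrays are high or low, with replicate 1 low for Dbp, Ciart and Usp2, replicate 2 high for Saa1, and replicates 2 and 3 above 1 and 4 for Cyp4a12a, Mup21 and C6, whereas the markers have SDs of 0.10 to 0.17.

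Replicate 4 was the highest array for all 10 detected genes of cholesterol synthesis and uptake, with a median deviation of 1.09 against -0.46 to -0.18 in the others. SREBP2 is known to activate these genes together when sterols are low. Sqle, squalene epoxidase, read 10.46, 9.98, 9.06 and 12.63, Nsdhl read 9.24, 9.70, 9.08 and 11.40, and Fdps read 13.25, 13.40, 13.09 and 14.90. In these 3 genes the lead of replicate 4 over the next array was larger than the whole range of the other 3. Dhcr7, the last enzyme of the pathway, read 9.66, 10.66, 10.73 and 11.88, highest in replicate 4 and lowest in replicate 1. Insig1, the sterol sensor partner of SCAP, read 11.76, 11.05, 11.21 and 12.12. Without replicate 4 the median SD of the list was 0.30 in place of 0.78.

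Replicate 4 was also high in several other groups. The immediate early gene Egr1 read 11.68, 12.11, 11.41 and 14.76, Fos read 8.32, 8.92, 8.81 and 10.77, and Junb read 10.06, 10.69, 10.49 and 11.92. Jun, another AP-1 gene like Fos and Junb, did not follow and read 8.53, 8.46, 8.62 and 8.53. The median deviation of the 18 detected immediate early and heat shock genes was 0.31 in replicate 4 and -0.10 to -0.07 in the others. Sinusoidal endothelial markers deviated by 0.78 in replicate 4, where 12 of 14 were above their own mean. Dnase1l3 read 8.69, 8.49, 8.53 and 9.96 and Oit3 read 8.23, 8.08, 8.20 and 9.46. Stab1 was an exception and was lowest in replicates 1 and 4 (8.89 in both). The summed linear signal of the 20 named endothelial markers was 16040 in replicate 4 and 7551 to 9369 in the others, that of the 11 stellate markers 10679 against 5111 to 7639, and that of the 15 Kupffer markers 3623 against 1941 to 2603. For the 4 cholangiocyte markers the sum was 2089 in replicate 4 and 940 to 1618 elsewhere, with Anxa4 at 8.09, 8.11, 8.07 and 10.35. Sox9, the other of these markers detected in every array, did not share this lead and read 9.78, 10.25, 9.08 and 9.36. The sum of the erythroid markers was lowest in replicate 4, at 2733 against 7261 to 15002. In replicates 2 and 3 Alas2 (13.52 and 13.47) was far brighter than the globin genes, so the sum there mostly follows Alas2. The globin genes Hba-a1, Hbb-bs and Hbb-bt read 8.14 to 8.36 in replicate 4, near the 8.46 to 8.74 of replicate 2. Whether RNA from non-parenchymal cells has a part in the other differences of replicate 4 was not tested.

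Interferon stimulated genes were dim (16 of 17 detected, median 8.46) and were higher in replicates 1 and 4, with median deviations of 0.29, -0.24, -0.32 and 0.39. Gbp2 read 8.43, 6.64, 6.71 and 9.61 and Gbp3 read 8.31, 6.95, 6.57 and 9.99. These 2 guanylate-binding protein genes had replicates 1 and 4 above replicates 2 and 3 without overlap. Mx2 did not share this order and read 8.54, 9.03, 9.06 and 9.04.

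Some acute phase genes varied widely. Saa1, a serum amyloid protein induced by inflammation, read 10.73, 15.97, 12.79 and 10.96, and Saa2 was detected in 2 arrays and reached 10.31 in replicate 2 against 5.75 to 6.19 elsewhere. Lcn2, which binds bacterial siderophores, read 10.77, 12.86, 10.31 and 12.08. Replicate 2 was the highest array in these 3 genes, although Saa1 and Lcn2 did not reach Dixon's critical value. Of 21 named acute phase genes 18 were detected with a median of 15.09, and 8 of the 18 spanned 1 or more. The array that was highest or lowest differed among them: Orm2, an orosomucoid, read 12.08, 12.78, 10.49 and 12.03, Apcs, serum amyloid P, read 14.56, 13.64, 12.78 and 14.08, and Saa4 read 14.43, 15.68, 15.97 and 15.23. The median deviation of the list in replicate 2 was 0.19. Crp (15.53, 15.28, 15.12 and 15.64) and Itih4 (15.63, 15.80, 15.73 and 15.94) had SDs of 0.23 and 0.13. Cyp2b10, the classic target of the receptor CAR, read 8.83, 13.71, 12.28 and 10.61, while Nr1i3, which encodes CAR, was highest in replicate 4 (14.11) and lowest in replicate 3 (12.89). Replicate 1 was the array farthest from its neighbour for Cyp2b10, and the order of arrays differed between these genes. Without replicate 2 the SD of Saa1 was 1.12 in place of 2.42. Saa1 was named for a large SD, so this fall is partly set by the choice.

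**Figure D5:**
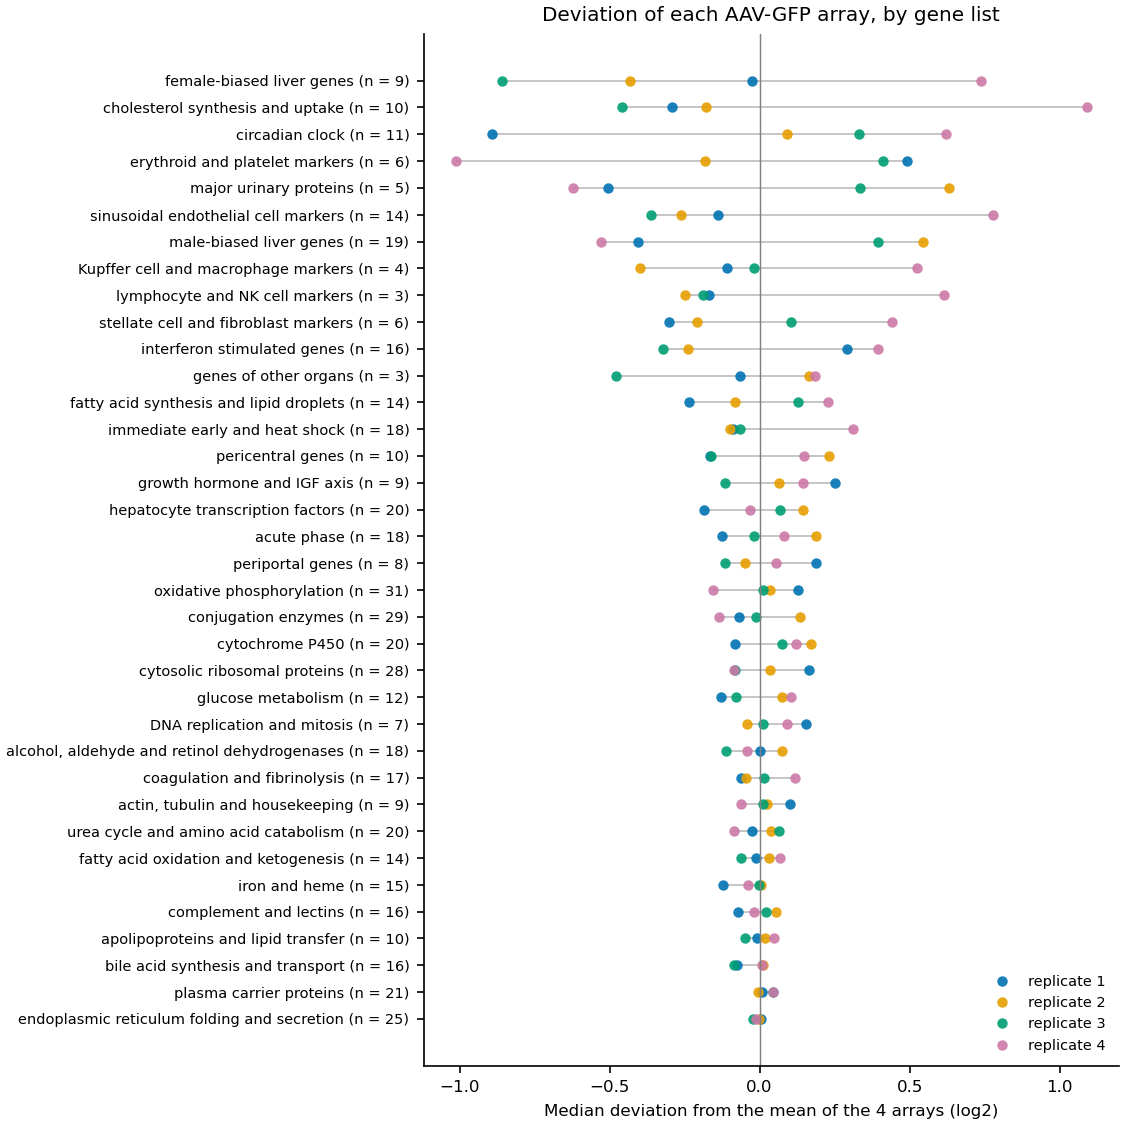
Median deviation of each AAV-GFP array from the mean of the 4 arrays (horizontal axis, log2 units) over the detected members of each gene list with at least 3 of them (n in brackets), one coloured point per array, ordered by range. The widest ranges are those of female-biased, cholesterol synthesis and clock genes, and endoplasmic reticulum genes deviate by no more than 0.02 in any array.

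Further genes had one array far from the other 3. Nat8, an acetyltransferase of liver and kidney, read 10.98, 12.74, 12.12 and 6.34, with replicate 4 low by 4.64, though the ratio of this gap to the range did not reach Dixon's critical value. Rbm45, an RNA-binding protein, read 10.77, 10.55, 6.68 and 10.29. Lrtm1 read 12.02, 12.21, 9.35 and 12.44 and Pcp4l1 read 10.98, 10.89, 8.56 and 10.92. Replicate 3 was the low array in these 3 genes. Rbbp4, a histone-binding subunit of chromatin complexes, read 9.59, 6.67, 9.12 and 9.14, low in replicate 2. Across all detected genes 482 (6.27%) had one array apart by Dixon's ratio, and 14 of them by a gap of 2 or more. Of these 14, 6 had replicate 1 apart, 2 replicate 2, 4 replicate 3 and 2 replicate 4.

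The most even genes with a mean of at least 10 were Extl3, Ilrun, Gspt1, Tmem230, Ate1, Gfm1, H3c14, Tfg, Sf3b2 and Stk4, all with an SD of 0.02. Gspt1, a translation termination factor, read 14.52, 14.53, 14.56 and 14.56, and Extl3, a glycosyltransferase of heparan sulfate synthesis, read 12.06, 12.06, 12.04 and 12.09. They were chosen for the smallest SD, so these values are a description.

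Probes of one gene often gave different levels. For 2533 genes with at least 2 probes detected in all arrays, the brightest and dimmest probe differed by a median of 1.68, and 1119 genes (44.2%) differed by 2 or more. The median SD over arrays of the brightest probe in the same genes was 0.20. Among the largest differences were Ctage5 with 15.72 and 7.01 on its brightest and dimmest probes, C9 with 15.46 and 6.84, and Sod1, the cytosolic superoxide dismutase, with 15.77 and 7.30. The rank of a gene such as Prdx1 (15.89 and 7.78 on its 2 probes) therefore rests on which probe represents it.

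Promoter windows were also described by rank of signal. The letters TATAAA, searched on the gene's strand only, were found in 22.1% of the windows of the 100 highest genes (77 of which had a window), in 7.81% of those ranked next, down to rank 1000, and in 4.29% of those ranked lower, against 8.88% of all 27025 genes. The GC box letters GGGCGG, searched on both strands, ran the other way with 37.7%, 61.3% and 66.4%. The median ratio of observed to expected CpG was 0.446, 0.735 and 0.79 in the same order, and 0.389 over all genes. GATA letters, searched on both strands as the run AGATAA, its variant TGATAA, the form AGATAG and the form TGATAG, occurred in 37.7%, 21.2% and 18.3% of the windows, with 30.2% over all genes. These shares describe the windows of 1 annotated start per gene and carry no test.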

How the data were processed

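RNA from AAV-GFP and AAV-Cre hepatocytes had been labelled with TargetAmp-Nano and hybridised to Illumina MouseWG-6 v2 BeadChips, 4 arrays per group. The authors deposited non-normalized GenomeStudio signals (linear intensity) with a detection p-value per probe, and a second table of intensities that they had quantile normalized and filtered on detection. The sources used here do not give the version of GenomeStudio. Arrays have no read depth, and precision rests on having 4 of them.

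The 4 AAV-GFP arrays were identified from the treatment label and described alone, with no test. The deposited intensities of all 8 arrays were corrected by normexp with background inferred from detection p-values (limma 3.58.1, R 4.3.3, offset 16), quantile normalized and put on a log2 scale. A gene was kept when its probe had a detection p-value at or under 0.05 in all 4 arrays, and it was represented by the probe with the highest mean. Symbols came from GEO's platform annotation, which covers the probes of the authors' filtered table: 14408 probes had 1 symbol, 7 had several and were not named, and 2405 of that table's 16820 probes had none. Of the 9640 symbols 9633 were in the RefSeq table. Summaries, motif searches and figures were made with Python 3.11.15, pandas 2.3.3, numpy 2.4.6 and matplotlib 3.10.9, and the summary code was tested on simulated data. Promoter sequences are from RefSeq (GRCm38.p6).

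Genes were named by rule. The rule took the 5 markers, the 20 highest signals, and the 15 largest and 10 smallest SDs among genes with a mean of at least 10. It took up to 4 highest and up to 4 most variable members of each list. GATA, FOG, X inactivation and Y-linked list genes with a named probe were all named, detected or not, and other-organ genes when detected. The genes beside the detection threshold were added, and up to 10 genes with one array apart by 2 or more and by Dixon's ratio. Other members are named as examples and were chosen after their values were seen. The members and lists were chosen with earlier results of these data known. Alternatives covered the background correction, the normalization, the offset (50), the detection filter, the probe choice and the arrays used.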

Additional observations from a re-analysis of the deposited data

Results flagged for a closer look

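Among 258 named genes detected in all arrays 27 had one array apart from the other 3 by Dixon's ratio, and among 36 gene lists 2 had. Of the 27, 10 had been named because one array was apart, and others for a large SD, so the count is partly set by the choice of genes. Over all detected genes the share was 6.27% (482 of 7686), and chance flags about 1 in 20 groups. The gap to the nearest other array is given in log2 units, and no explanation was weighed.

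Replicate 1 was apart for 14 of these genes, 2 of them above and 12 below the other arrays. The gap was 5.64 for Dbp, 5.2 for Usp2, 5.02 for Ciart, 2.62 for Lpin1 and 2.52 for Map2k6, all below. It was 1.27 for Alas1, 0.9 for Cyp2a5, 0.84 for Clock and 0.83 for Dgat2. Smaller gaps were 0.4 for Aldh4a1, 0.37 for Acaa1a, 0.21 for Cd8b1, 0.13 for Chchd10 and 0.05 for Stk4, a gene with one of the smallest SDs.

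Replicate 3 was apart for Rbm45 (3.61), Lrtm1 (2.67), Pcp4l1 (2.33), Abcg5 (0.91), Igfbp2 (0.87) and the pancreatic elastase gene Cela1 (0.83). Replicate 2 was apart for Rbbp4 (2.44) and Hpd (0.28).

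Replicate 4 was apart for Anxa4 (2.23), the endothelial markers Dnase1l3 (1.27) and Oit3 (1.23), Cd74 (1.21) and Hpx (0.2). It was also apart in the median deviation of the immediate early and heat shock genes, by 0.38, and of the lymphocyte and NK cell markers, by 0.78. The second of these medians rests on 3 detected genes. Cd74 and H2-Ab1 are genes of antigen presentation, and Cd8b1, at 11.93, 12.14, 12.18 and 12.15, was not highest in replicate 4.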

How the results depend on the processing

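No paired analysis was possible because 1 group was described and no test was run. The count of detected genes in AAV-GFP, 7686, was 6963 with a detection p of 0.01, 9222 with detection in 1 or more arrays and 7854 without replicates 1 and 4. The median signal of detected genes, 10.16, was 10.46 without background correction, 10.48 in the authors' value table, 10.46 at a detection p of 0.01, 9.53 with detection in 1 or more arrays, 9.74 with the mean of a gene's probes and 9.26 with its lowest probe. The median SD of detected genes, 0.22, was 0.154 without background correction, 0.155 in the authors' table, 0.246 with scaling to the 75th percentile, 0.253 with detection in 1 or more arrays and 0.129 without replicates 1 and 4. The last of these rests on a pair of arrays, which by itself tends to lower a median SD. Leaving out each replicate in turn gave a median SD of 0.186 to 0.225, 7737 to 7838 detected genes and a median signal of 10.09 to 10.12. Of the 100 highest genes 65 stayed among the 100 highest with the mean of the probes and 59 with the lowest probe. Over all alternatives, 282 of 3597 values of a named gene's signal moved by more than its spread between replicates, as did 95 of 532 list medians, while 44 of 3597 SDs and 7 of 532 counts of detected list members moved. The causes of these shifts were not tested. Levels near background and near the ceiling of the scanner are the least certain, and 97 of the 100 brightest probes could not be named.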
